A study of Drosophila melanogaster with 4 samples.

Results

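The regions described here are the stretches of chromosome arm 3R, the right arm of the third chromosome of Drosophila melanogaster, that were enriched in chromatin immunoprecipitation with an antibody to the histone variant H2Av. They are all regions of enrichment that the authors listed on 3R for the replicate set, 1231 of 6065 in that list, or 20.3%. Each was matched, from 1 shared bp upwards, to the 3R regions listed for ChIP replicate 1 (1021 of 5019) and ChIP replicate 2 (1027 of 5037). No region marked as depleted lay on 3R. All 4 samples of the study, 2 ChIP and 2 input DNA samples, came from S2-DRSC, a male line of cultured cells derived from late embryos, after RNA interference against H2Av. The cells were given 50 µg of double-stranded RNA, grown to confluence for about 4 days, and given 200 µg a second time before formaldehyde fixation. Untreated cells were not analysed here, the remaining H2Av protein was not measured here, and the input samples were not analysed here. Every value thus belongs to cells treated against H2Av, and how far the enrichment stems from H2Av left in them was not tested.

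H2Av is the histone H2A variant of the fly and does the work that H2A.Z and H2A.X share out in other animals. Like H2A.Z it sits in nucleosomes near the starts of genes and helps to set how open the chromatin is there, and like H2A.X it is phosphorylated at DNA breaks. The gene named on the labels as the target of the double-stranded RNA, CG5499, is His2Av and is itself carried on 3R, per RefSeq. In the coordinates used here, FlyBase release 5 per the file headers, 3R is 27905053 bp long. Its low coordinates lie on the centromere side and its high coordinates at the tip. Regions on the separate sequence 3RHet were left out, so terms such as proximal refer to the 3R sequence alone. No genome or annotation of that release was used here, so positions are given without gene names or sequence.

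Regions on 3R were mostly a few kb wide and lay close together along only part of the arm. Replicate 1 covered 5.15 Mb of 3R and replicate 2 covered 5.08 Mb, a mean of 18.3% ± 0.173 of the arm (SD, n = 2), while the replicate set covered 6.18 Mb or 22.1%. The median width was 3798 bp in replicate 1, 3807 bp in replicate 2 and 3615 bp in the replicate set. In replicate 1 the middle part of the widths, from the lower to the upper quartile, ran from 2454 to 6163 bp, and in replicate 2 from 2423 to 6080 bp. The quartiles of the 2 replicates thus differed by less than 100 bp, whereas the replicate set reached lower at its lower quartile (1937 bp) and higher at its upper quartile (6528 bp). In the replicate set, both narrow and broad regions were more numerous than in either replicate.

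A small number of broad regions held a large part of the enriched sequence. Regions of 10 kb or more numbered 100 in replicate 1 and 95 in replicate 2, or 9.79% and 9.25% of the regions, and they held 28.4% and 27.0% of the covered sequence. In the replicate set 146 regions of this width held 34.9% of the cover. At the other end, regions below 2 kb numbered 160 in replicate 1 and 180 in replicate 2 but held 4.99% and 5.78% of the cover. In the replicate set the 331 regions below 2 kb made up 26.9% of all regions and 7.71% of the cover. Most of the cover therefore lay in regions between 2 and 10 kb, which held 32.7% (2 to 5 kb) and 33.9% (5 to 10 kb) of it in replicate 1 and 33.3% and 34.0% in replicate 2.

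Most regions of the replicate set on 3R were present in both replicates. Of the 1231 regions, 848 (68.9%) overlapped a region of each replicate, 65 (5.28%) overlapped replicate 1 only, 72 (5.85%) replicate 2 only, and 246 (19.98%) neither. Because the list stands for these very replicates, this overlap is built in and was not tested. Shares over the whole lists are not given here, so these counts, and those between replicates below, describe 3R only. By sequence the shared part was larger, since the 848 regions held 89.8% of the cover and the 246 unmatched regions 5.75%. Their median widths were 4969 bp in both replicates, 1767 bp in replicate 1 only, 1958 bp in replicate 2 only and 1279 bp in neither.

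**Figure D1:**
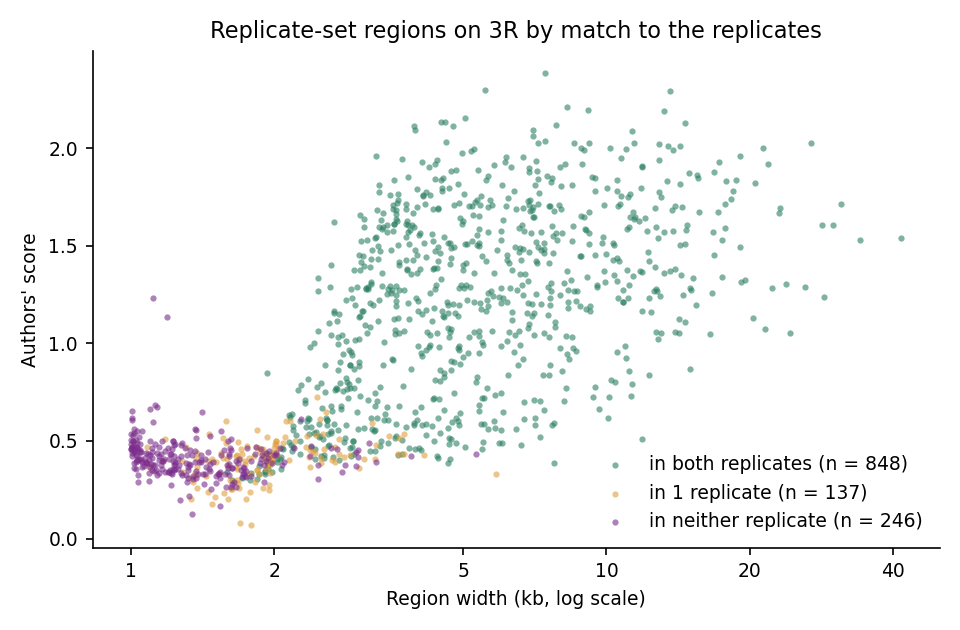
Each point is a replicate-set region on 3R, with its width in kb on a log scale and the authors' score, coloured by the number of replicate lists it overlaps. Regions that overlap both replicates spread from 1595 to 41675 bp, while the others crowd below about 2 kb and near a score of 0.41. The narrowest of the former, 19795794 to 19797388, meets its replicate 1 partner, which starts at 19797359, only at its end.

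Presence in both replicates went with width. Of the 331 regions below 2 kb, 18 (5.44%) were found in both replicates, against 411 of 479 (85.8%) between 2 and 5 kb and 273 of 275 (99.3%) between 5 and 10 kb. All 146 regions of 10 kb or more were found in both. Since 1 shared bp was enough, a wider region could match more easily, so part of this rise with width is built in. The narrowest region in either replicate list was 1301 bp on 3R, and 125 of the 246 unmatched regions were narrower than that. The other 121 unmatched regions were at least that wide, the widest being 5317 bp (1231234 to 1236550, score 0.434). The score of a region, a value given by the authors whose formula is not given in the sources used here, had a median of 1.27 in regions found in both replicates and of 0.403 in those found in neither, and wider regions had higher scores (Spearman correlation 0.760 across the 1231 regions of one list, which share libraries and are not independent).

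Most regions that were not in both replicates lay within 10 kb of one that was. Of the 383 regions that were not in both replicates, 117 lay within 1 kb of a region that was, and 309 (80.7%) within 10 kb. The median distance was 2275 bp for regions in replicate 1 only, 3455 bp for those in replicate 2 only and 2613 bp for those in neither. Only 13 of the 383 lay more than 50 kb from a shared region. Neighbours in the replicate set as a whole were also close, with a median gap of 3018 bp and an upper quartile of 11822 bp. Whether these regions lay nearer to shared ones than the general spacing gives was not tested.

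Replicate-set regions tended to be wider than their partners in the replicates, and some spanned several of them. Each of 711 regions matched exactly 1 region in each replicate, and in 709 of them these partners also overlapped each other. In 643 of the 711 (90.4%) the replicate-set region was wider than both partners. Over all 711, its width exceeded the mean of the partners by a median of 287.5 bp. Another 138 regions overlapped several regions in at least 1 replicate, 48 of them in both replicates, and had a median width of 10104 bp against 4489 bp for the one-to-one regions. The most divided was the region at 69800 to 81656, near the centromere-side end of the sequence, which held 3 regions of replicate 1 and 5 of replicate 2. A broad region of the replicate set can therefore stand for several neighbouring regions in a replicate.

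Where each replicate listed a single partner for a replicate-set region, the 2 replicates placed its edges nearly alike. The 138 regions divided in at least 1 replicate are not part of this edge comparison. Among the 711 one-to-one regions, starts differed between replicates by a median of 104 bp, ends by 111 bp and widths by 192 bp, with 95% of width differences at or below 1383.5 bp. Direct comparison of the replicate lists gave 939 of 1021 regions of replicate 1 (92.0%) overlapping replicate 2, and 943 of 1027 (91.8%) the other way. The shared sequence was 4.73 Mb, or 91.8% of the cover of replicate 1 and 93.1% of that of replicate 2. Unshared regions, 82 in replicate 1 and 84 in replicate 2, were narrow, with medians of 1546 and 1548 bp against 4071 and 4078 bp for shared regions. Scores in replicate 2 exceeded those in replicate 1 in 455 of the 711 one-to-one regions (64.0%), by a median of 0.04 over all of them with an SD of 0.13 across regions. Only 3 regions of the replicates had no counterpart in the replicate set, namely 7198862 to 7200191 and 12200800 to 12202117 in replicate 1 and 7781036 to 7782367 in replicate 2, all below 1.5 kb.

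Neighbouring regions were separated by gaps that ranged from 1 bp to 369.0 kb in the replicates. The median gap was 4117.5 bp in replicate 1, 4175.5 bp in replicate 2 and 3018 bp in the replicate set. The lower quartile was 1291 bp and the upper quartile 17027 bp in replicate 1, against 1388 and 16625 bp in replicate 2. Gaps of 1 kb or less made up 20.5% of the 1020 gaps of replicate 1, 18.4% of the 1026 of replicate 2 and 27.5% of the 1230 of the replicate set. Short gaps were thus more frequent in the replicate set.

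**Figure D2:**
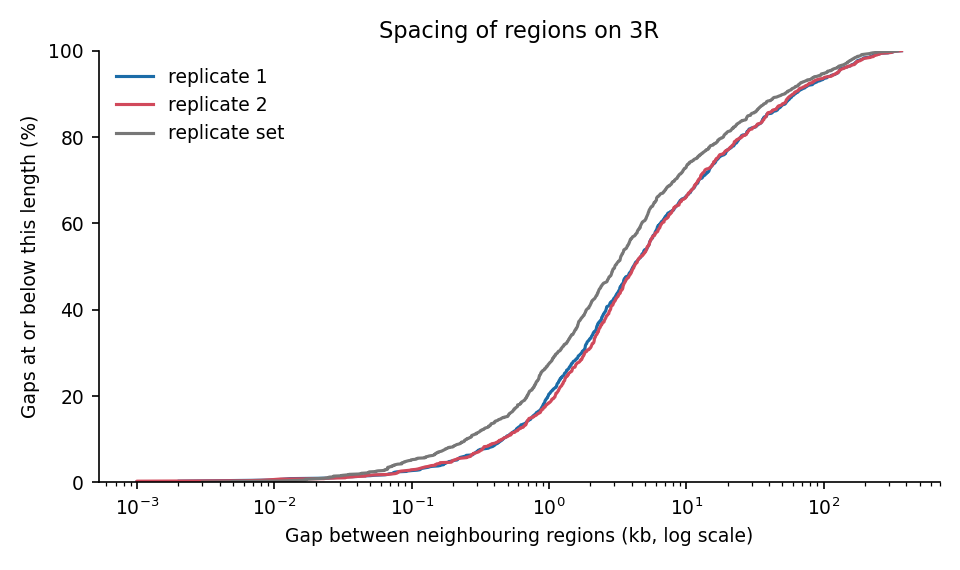
Cumulative share of the gaps between neighbouring 3R regions, in percent, against gap length in kb on a log scale, with 1 line per list. The replicate lines run together, with medians of 4117.5 and 4175.5 bp, and the replicate-set line lies to their left, with a median of 3018 bp.

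Closely spaced regions formed short runs. When neighbours with gaps of 1 kb or less were joined into runs, 37.6% of the regions in replicate 1 had at least 1 such neighbour, as had 33.1% in replicate 2. The share was 45.7% in the replicate set. Most runs were pairs, 149 in replicate 1, 120 in replicate 2 and 154 in the replicate set, and runs of 5 or more regions numbered 2, 1 and 7. The longest run of the replicate set had 8 regions within 21771 bp (17093456 to 17115226), of which 19140 bp were covered. Its members ranged from 1029 to 5065 bp in width and from 0.333 to 1.41 in score, and the same stretch held 3 regions of replicate 1 and 4 of replicate 2. In replicate 1 the longest run had 6 regions (6592020 to 6624000) and in replicate 2 it had 5 (11030033 to 11058084).

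Most of the arm lay in long stretches without any enriched region. Gaps of 50 kb or more numbered 129 in replicate 1 and 127 in replicate 2, 12.6% and 12.4% of all gaps, yet they spanned 15.95 and 15.86 Mb, which is 57.0% ± 0.231 of 3R (SD, n = 2). Gaps of 100 kb or more numbered 67 and 65 and spanned 42.0% and 41.9% of the arm. The long gaps lay in the same places, as 15.4 Mb was shared, 96.8% of the long-gap sequence of replicate 1 and 97.4% of that of replicate 2. Inside this shared sequence the replicate set listed 62 regions, which by construction overlap neither replicate. Their median score was 0.405 and their median width 1213 bp. Read depth and mappability in these stretches are unknown here, so they cannot be read as free of H2Av.

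The 5 longest gaps of the replicate set were scattered over the arm. The longest, 344.0 kb at 23815903 to 24159869, lay in the distal part. In the replicates it was 369.0 kb long and began at the edge of one of the most strongly scored regions of the arm, listed at 23777358 to 23790982 in the replicate set. The second, 329.3 kb at 12482125 to 12811437, lay near the middle of the arm and had almost the same limits in replicate 1 (12482026 to 12812864) and replicate 2 (12482064 to 12812937). The others were 293.5 kb at 18578177 to 18871711, 255.6 kb at 23127849 to 23383433 and 243.96 kb at 8540347 to 8784307, and neither replicate listed a region inside any of these 3. Replicates also held a gap of 323.2 and 323.3 kb from 1837465 and 1837348, within which the replicate set listed 1 region, 1992066 to 1993534 (1469 bp, score 0.525), found in neither replicate.

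Cover along the arm was followed in fixed windows of 100 kb from the centromere side to the tip, 280 in all, of which the last was 5053 bp long. The median window was covered to 15.9% in replicate 1 and 15.8% in replicate 2, the lower quartile to 3.10% and 2.39%, and the upper quartile to 27.1% and 26.5%. The most covered window reached 72.0% in replicate 1 and 70.7% in replicate 2. Windows with no region numbered 54 in replicate 1, 56 in replicate 2 and 46 in the replicate set. Of the 279 full windows, 48 were empty in both replicates, 44 of these also in the replicate set, and 12 were empty in 1 replicate only, with cover no higher than 1.94% in the other.

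**Figure D3:**
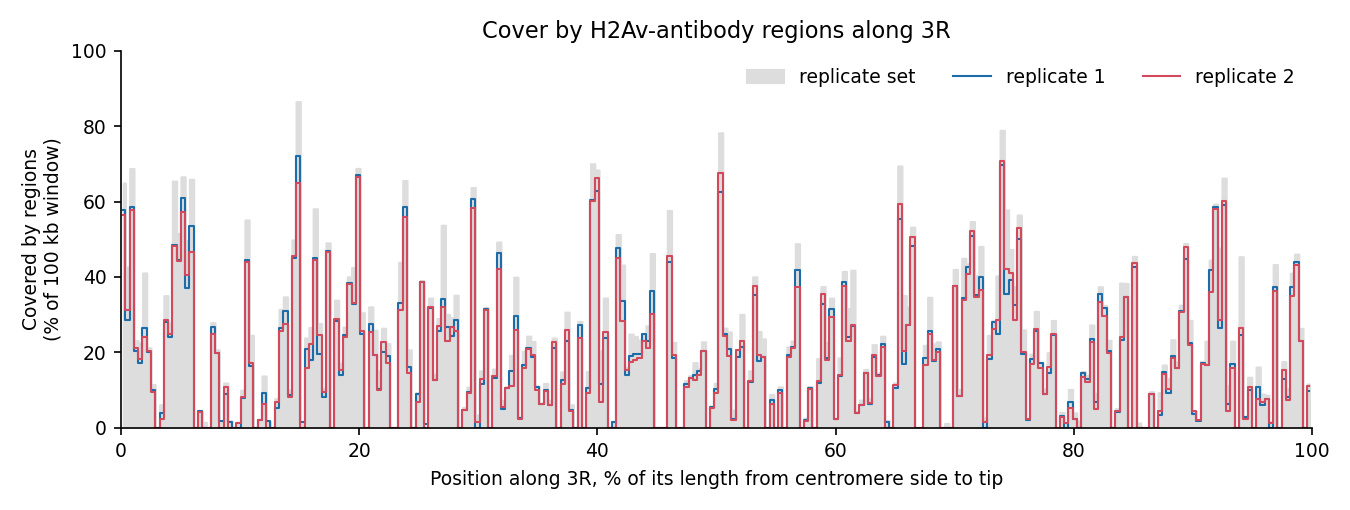
Percent of each full 100 kb window of 3R covered by regions, against position along the arm in percent of its length from the centromere side (0) to the tip (100). Lines are the 2 replicates and the grey area the replicate set; peaks up to 72.0% in the replicates alternate with empty windows along the whole arm.

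The profile was nearly the same in the replicates. Cover per window had a Spearman correlation of 0.993 between replicates over the 279 full windows, a description only, since windows of one arm share both libraries and their neighbours. The median absolute difference was 0.704 percentage points and 95% of windows differed by 4.02 points or less. The widest differences were 7.15 points in the windows at 4100001 to 4200000 (72.0% in replicate 1, 64.9% in replicate 2) and 1600001 to 1700000 (53.7% and 46.5%). Cover was higher in replicate 1 in 131 windows and in replicate 2 in 100.

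Dense windows were dense mainly by holding more regions. The 279 full windows were ranked by mean cover into 4 near-equal groups. The highest group, covered from 27.1% to 70.2%, contained 523 of the 1021 regions of replicate 1 and 528 of the 1027 of replicate 2, and 57.6% and 57.5% of their cover. Median region number in these 70 windows was 7 in replicate 1 and 7.5 in replicate 2, against 2 in both for the second-lowest group, which reached from 3.13% to 15.9%. The median of the windows' median widths differed less between these groups. It was 3460 bp in the second-lowest and 4438.5 bp in the highest in replicate 1, and 3994.5 and 4376.75 bp in replicate 2. In the lowest group, which held only 16 and 14 regions, it was 1962 and 2092.5 bp in replicates 1 and 2. Over the 217 full windows with regions in both replicates, cover had a Spearman correlation of 0.873 with the number of regions and of 0.321 with their median width. Cover, number and width come from the same regions, so these values describe how the cover is made up.

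**Figure D4:**
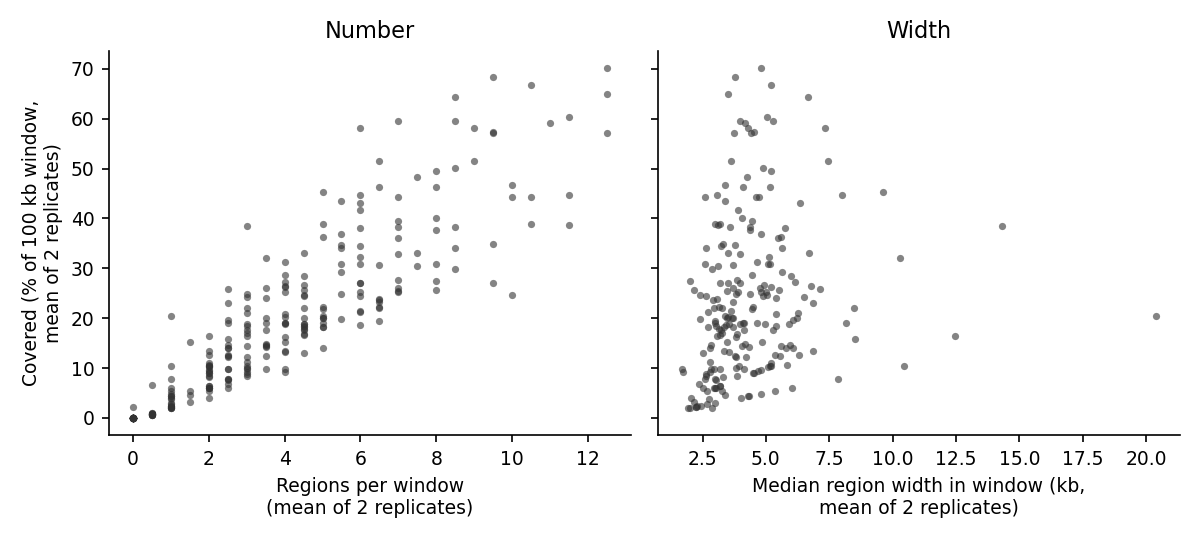
Percent of each full 100 kb window covered against the number of regions with their midpoint in it (left) and against their median width in kb (right), as means of the 2 replicates, with 1 point per window. The left panel holds all full windows, the right only those with regions in both replicates. Over the 217 windows with regions in both, cover climbs with number (Spearman 0.873) more closely than with width (0.321).

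The 5 most covered windows were spread from the proximal to the distal part of the arm. The window at 20600001 to 20700000 was covered to 69.6% in replicate 1 and 70.7% in replicate 2, with 11 and 14 regions. Those at 4100001 to 4200000 (72.0% and 64.9%), 5500001 to 5600000 (67.0% and 66.5%), 14000001 to 14100000 (62.6% and 67.5%) and 11100001 to 11200000 (62.7% and 66.2%) followed. Of these, the window from 5500001 varied least between replicates and the window from 4100001 most. In all, 15 windows were covered over 50% in both replicates.

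Empty windows were scattered and mostly stood alone. The 48 windows empty in both replicates formed 38 stretches, 31 of them a single window. The longest were 3 windows each, from 12500001 to 12800000, from 19200001 to 19500000 and from 23800001 to 24100000. The second and the third of these each held 1 region of the replicate set, which covered 1.19% and 1.28% of 1 window. Cover of a window had a Spearman correlation of 0.216 with that of the next window and of -0.06 with that of the window 5 further on. Neighbouring windows were therefore only weakly alike at this scale.

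At the scale of the arm, cover was highest in the part nearest the centromere and in a second part towards the tip. Divided into 5 equal parts from centromere to tip, 3R was covered to 21.7% ± 0.255, 17.7% ± 0.330, 15.9% ± 0.318, 20.2% ± 0.152 and 16.1% ± 0.114 (SD, n = 2 each). The first and the fourth parts were higher than the others in both replicates, so cover did not decline steadily with distance from the centromere. Region density followed the same course, at 43.0 ± 0.253 per Mb in the first part, 41.7 in both replicates in the fourth, and 31.5 to 34.3 as means in the others. Median width did not follow it, since the second part had the highest median in both replicates, with a mean of 4138 ± 26.9 bp. The first part had the lowest mean median, 3667 ± 114 bp (SD, n = 2 each), but was lowest in replicate 2 only (3586 bp). In replicate 1 the fourth part was lower, at 3734 bp against 3747 bp.

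With the arm divided into 10 equal parts, the second maximum lay in part 8 (19533538 to 22324042), which was covered to 24.1% in replicate 1 and 24.4% in replicate 2, above each of the other parts in both. Parts 1 and 2 followed with 21.6% and 22.1% in replicate 1 and 21.2% and 21.8% in replicate 2. Part 9, right after the maximum, was the lowest in both replicates, at 15.1% and 15.0%. Part 8 also held the most regions (133 and 136) and the highest median scores (1.41 and 1.46). The share of replicate-set regions found in both replicates ranged from 58.8% in part 10, at the tip, to 75.5% in part 9. Part 10 also had the lowest median width in the replicate set (2819 bp) but not in the replicates (3667 and 4247.5 bp).

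The proximal part was covered 1.24 times as densely as the rest of the arm in replicate 1 and in replicate 2, taking the fifth nearest the centromere. The ratio was 1.15 when only regions at or above the median score of 3R were kept. Regions began at the very start of the 3R sequence, at position 1 in replicate 1, 5 in replicate 2 and 2 in the replicate set, where the first region was 24321 bp wide. The window at that end was covered to 57.9% and 56.4%. At the tip the last region ended 9184 bp from the end of the sequence in replicate 1 and 8607 bp in replicate 2.

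The most strongly scored regions of 3R were wider than the median region of the arm but not the widest. Among the 10 highest-scored regions found in both replicates, widths ran from 4489 to 14591 bp, and 3 were of 10 kb or more. Of the 10, 8 lay on the tip side of the arm's midpoint, where 600 of all 1231 regions (48.7%) lay, and the nearest was 59.3 kb past it. Each matched 1 region in each replicate. The highest, 23095108 to 23102542, scored 2.38 in the replicate set, 2.37 in replicate 1 and 2.43 in replicate 2 and ranked first on 3R in all 3 lists. The next, 27440176 to 27445716 near the tip, scored 2.30, with 2.37 in replicate 1 and 2.29 in replicate 2. The third, 23777358 to 23790982, scored 2.29, with 2.23 and 2.42. These 3 stood among the 5 highest in both replicates. All 10 were picked by score in the list that stands for these replicates, so high ranks in each are largely built in.

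The other 7 kept high ranks but changed places between replicates. They were 20474162 to 20482412 (score 2.21), 14007302 to 14016438 (2.19), 18564962 to 18578176 (2.19), 4172044 to 4177086 (2.16), 22700186 to 22704752 (2.13), 5625086 to 5629574 (2.13) and 19747344 to 19761934 (2.13). Replicate 1 ranked all 10 among its first 12 regions on 3R and replicate 2 among its first 22. The region at 14007302 was at rank 3 in replicate 1 (2.31) and rank 22 in replicate 2 (2.15), while that at 4172044 was at rank 12 in replicate 1 (2.10) and rank 3 in replicate 2 (2.36). The region ending at 18578176 was followed directly by the gap of 293.5 kb described above.

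The widest regions were not the most strongly scored. The widest, 6671226 to 6712900 (41675 bp), scored 1.54 and was at rank 251 by score. Replicate 1 divided it into 2 regions, the wider of 37887 bp, and replicate 2 into 4, the widest of 20874 bp, although the covered sequence was similar (39822 and 38345 bp). Next was 4119512 to 4153692 (34181 bp), 3 regions in replicate 1 and 2 in replicate 2 with widest pieces of 30242 and 29798 bp. It lay in the same window as the high-scored region at 4172044, the window most covered in replicate 1. The third and the fourth, 25545404 to 25576504 (31101 bp) and 25802160 to 25832146 (29987 bp), both lay in part 10 of the 10 equal parts, at the tip. The fifth, 23494084 to 23522688 (28605 bp), was 1 region in replicate 1 (24826 bp) and 2 in replicate 2 (the wider 16196 bp). In the widest and the fifth, the number and width of the pieces thus differed between replicates while the covered sequence was similar.

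Of the regions found in neither replicate, only 2 scored above 1. They were 1085642 to 1086752 (1111 bp, score 1.23) and 19341282 to 19342472 (1191 bp, score 1.14), and the next was 582662 to 583784 (1123 bp, score 0.683). All 3 were narrower than the narrowest region of either replicate list on 3R.

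Compared with 2L and 3L, 3R was covered to a similar degree, and its measures of spacing differed from those of 2L in both directions. Cover was 18.5% and 18.2% on 3R in replicates 1 and 2, 18.0% and 17.9% on 3L, and 19.1% and 18.8% on 2L. The difference was -0.591 ± 0.0362 percentage points against 2L and 0.387 ± 0.0559 against 3L (SD, n = 2 each). Median gaps on 3R exceeded those on 2L by 524 bp in replicate 1 and 528.5 bp in replicate 2, but by only 113 bp in the replicate set. Regions per Mb were nonetheless slightly more numerous on 3R, at 36.6 and 36.8 against 36.0 and 35.6 on 2L (44.1 against 40.6 in the replicate set), and gaps of 50 kb or more spanned a mean of 57.0% of 3R against 58.9% of 2L. Against 3L the excess was 27.5 and 358.5 bp, smaller on average than its SD of 234.1 bp, and the sign turned in the replicate set (-77 bp). Median widths on 3R were above those on 2L by 130 and 98 bp and above those on 3L by 88.5 and 239 bp, but in the replicate set 3R lay 68 bp below 2L.

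**Figure D5:**
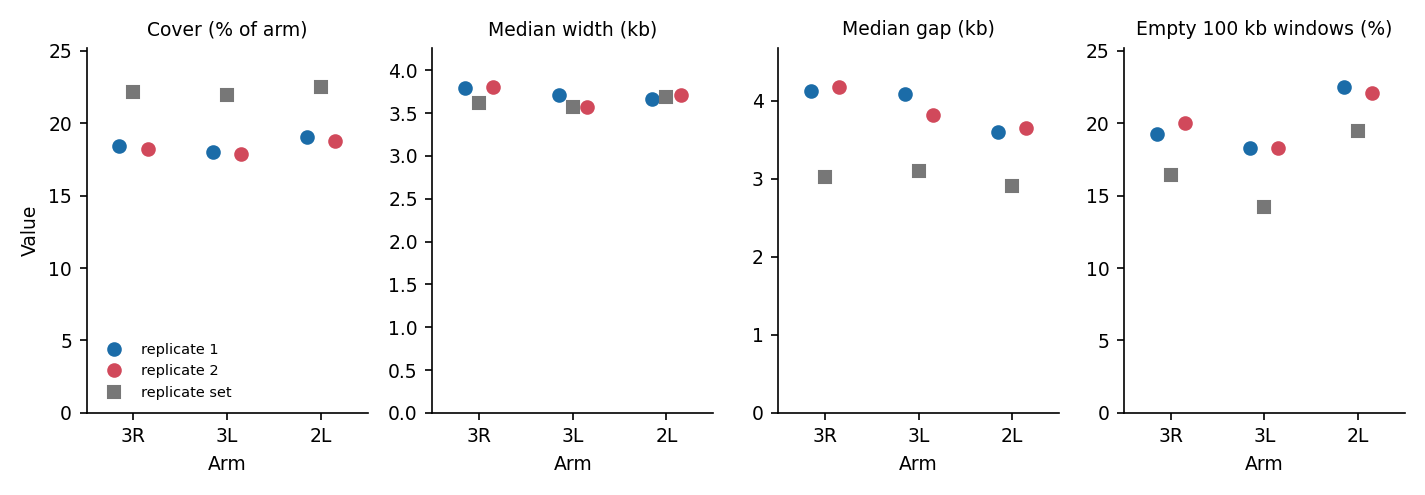
Percent cover, median region width (kb), median gap (kb) and percent of 100 kb windows without a region on 3R, 3L and 2L, with circles for the 2 replicates and squares for the replicate set; axes start at 0. Cover lies between 17.9% and 19.1% on all 3 arms in the replicates, and 2L has the shortest median gaps.

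Empty windows and the longest gap were less extreme on 3R than on 2L. Empty windows made up 19.3% and 20% of those on 3R against 22.5% and 22.1% on 2L and 18.3% on 3L in both replicates. The longest gap was 369.0 kb on 3R in both replicates, against 638.1 and 638.7 kb on 2L and 504.6 kb in both on 3L. Regions of 10 kb or more were 9.79% and 9.25% of those on 3R, 10.5% on 2L in both replicates and 7.52% and 7.46% on 3L, but in the replicate set 3R (11.9%) lay above 2L (11.6%). The most covered window reached 90.0% and 89.4% on 2L and 82.6% and 78.3% on 3L, both above 3R in each replicate. With 2 replicates, the exact two-sided sign-flip permutation test on the paired differences cannot give p below 0.5. Over 16 differences between 3R and these arms it gave 0.5 or 1 (0.533 or 1 after Benjamini-Hochberg adjustment), so no feature can be called particular to 3R.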

How the data were processed

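ChIP-seq regions of 2 ChIP replicates and of the replicate set were analysed. The authors deposited region lists only, with start, end and a score per region in FlyBase release 5 coordinates per the file headers. Per the submitters' processing notes, Bowtie 0.12.7 was used. How regions were called and scored, and whether inputs entered, is not given in the sources used here. Samples were grouped by title and source name. The description of ChIP replicate 2, 1 of the 2 replicates behind each mean and SD, reads as input and so contradicts its title. That of input replicate 1 also contradicts its title. The labels do not say whether replicates were separate cultures, so their spread may be technical. Read depth is unknown, so no counting interval is given.

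Rows on 3R, not those on 3RHet, were taken, and no region ended past the arm. Overlap counted from 1 bp. Windows were 100 kb from coordinate 1, and regions were assigned to windows and parts by midpoint. Values per replicate are given with mean and SD (n = 2). Regions named are the 10 highest-scored in both replicates, the 5 widest, the 5 longest gaps, the 5 most covered windows, the longest run and the 3 highest-scored in neither; the 5 least covered windows could not be named because 48 tied at 0. Replicate gaps, the ends of the arm and single extremes were named after their values were seen. The members and lists were chosen with earlier results of these data known. Interval calculations were tested on simulated data, and all 20 simulated pairs of lists returned the known overlap. Alternatives were a reciprocal overlap of 50%, merging within 200 bp, the upper part by score, the replicate-set list, other windows, other parts of the arm and leaving out a replicate. Calculations used numpy 2.4.6, scipy 1.17.1 and pandas 2.3.3 under Python 3.11.15, and plots matplotlib 3.10.9.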

Additional observations from a re-analysis of the deposited data

How the results depend on the processing

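Leaving out either replicate moved no result by more than the replicate SD. For a mean of 2 replicates this outcome is fixed in advance, so it carries no information. Overlap between replicates has no value once 1 of them is left out. No paired analysis was possible because only the ChIP samples, a single group, have region lists; this concerns sample groups, whereas arms were compared within each replicate. The replicate-set list moved the median width to 3615 bp, the median gap to 3018 bp, cover to 22.1%, empty windows to 16.4% and the proximal ratio to 1.248 (1.238 in the replicates). Merging within 200 bp moved the width to 3940.5 bp and the gap to 4749.5 bp. Regions at or above the median score, by construction fewer (512.5 per replicate), gave a width of 5428 bp, a gap of 14479 bp, cover of 12.5%, empty windows of 30.5%, a proximal ratio of 1.15, overlap between replicates of 94.7% and a replicate-set match of 99.7%. A reciprocal overlap of 50% gave 84.6% between replicates and 62.7% for the replicate-set match. Empty windows were 35.1% at 50 kb, 4.64% at 200 kb and 18.3% after a shift of 50 kb. The proximal ratio was 1.19 for the 10% of the arm nearest the centromere and 1.22 by regions per Mb. In the replicate-set list, 3R differed from 2L by -0.366 points of cover, 3.48 regions per Mb, -68 bp of width (114 in the replicates, so reversed), 113 bp of gap and 0.309 points in the share of regions of 10 kb or more (-0.975 in the replicates, so reversed). From 3L it differed by 0.171 points, 46 bp of width and -77 bp of gap (193 in the replicates, so reversed). Apart from what each alternative builds in, the cause was not tested. With depth unknown, a weak region missing from a list cannot be read as absent from that replicate.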

Other observations

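Some regions on 3R carried a score that recurred exactly elsewhere in their list: 9.89% of those in replicate 1, 7.59% in replicate 2, and 109 (8.85%) in the replicate set. The share over all regions of each list is not given here, so these values describe 3R only. These regions were narrow, with median widths of 2093, 1866 and 1353 bp against 3798, 3807 and 3615 bp for all regions of 3R. In the replicate set, 76 of the 109 were found in neither replicate, 9 in replicate 1 only, 14 in replicate 2 only and 10 in both. Of all 1231 regions on 3R, 246 were found in neither, and no comparison at equal width was made. The most frequent score on 3R occurred 6 times in replicate 1 (0.593), 3 times in replicate 2 (0.584) and 4 times in the replicate set (0.461).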
